A study of Mus musculus with 5 samples.

Results

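The genes described here encode the nuclear subunits, isoforms and assembly factors of the mitochondrial respiratory chain and ATP synthase. They were taken by symbol in the platform's probe annotation (Nduf, Uqc, Atp5, Cox4 to Cox8, and Sdha to Sdhd), from probe sets that carry exactly 1 symbol, with the probe set of highest mean signal standing for each gene. The rule found 93 genes of 18193 with such a probe set. Of these, 89 passed a filter on dim signals (mean over the 5 arrays at or above 7.04 on the log2 scale used here), as did 11392 genes in all. Membership rests on names, while the choice of probe set rests on signal, and the set of arrays in which each comparison is read was chosen from the signals themselves. The difference between those sets is therefore given as a description, without a test.

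By the labels, each array was hybridised with RNA from marrow cells of tibia and femur, enriched on magnetic beads for B220, a surface form of CD45 on developing B cells. The mice were 4 weeks old, of the FVB background and untreated. In 3 arrays the mice carried IKKαK44A/K44A, a knock-in of a kinase-dead form on both alleles (here KA/KA), and in 2 they were wild-type littermates (WT). IKKα is one of the kinases that activate NF-κB signalling. A knock-in change is not limited to B cells. The labels do not say whether an array holds 1 mouse or a pool, so the spread between arrays may be partly technical. The transcript of the mutated gene was not analysed here. Signals are given as log2(signal + 16), called log2 units below.

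The arrays labelled KA/KA 1 and WT 1 carried B-cell progenitor transcripts, and the other 3 carried transcripts of lung. Rag1, the recombinase of antigen receptor genes, read 12.80 and 12.79 on KA/KA 1 and WT 1 and 4.09 to 4.10 on KA/KA 2, KA/KA 3 and WT 2, which is background. Sftpc, surfactant protein C of alveolar cells, read 6.53 and 5.97 on the first pair and at least 14.04 on the other 3. The summed signal of 9 pro-B and pre-B genes was 54610 and 63530 on KA/KA 1 and WT 1, and between 1991 and 4329 on the rest. That of 9 lung epithelium genes was 388.8 and 296 on the pair and between 104700 and 166900 on the rest. The sets also differ in the signal of bacterial poly-A controls, by which they were separated. They are called the marrow-like pair and the lung-like arrays. For the lung-like arrays the labelled cell type was not borne out by its markers, so their genotype differences are those of the arrays with these labels. Each set holds 1 WT array, so all KA/KA values within a set are read against a single array.

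The respiratory chain passes electrons from NADH (complex I) and succinate (complex II) through complex III to oxygen at complex IV, and the proton gradient this builds drives ATP synthase (complex V). Most nuclear subunits are made in every cell with mitochondria, but complex IV has small subunits with tissue isoforms: Cox6a2, Cox7a1 and Cox8b are the forms of heart and skeletal muscle, and Cox6a1, Cox7a2 and Cox8a are their ubiquitous partners. Cox4i2 is known as a lung form of Cox4i1, and Ndufa4l2 as a relative of Ndufa4 that is induced at low oxygen. Developing B cells depend on respiration as they proliferate, and heart muscle is among the tissues richest in mitochondria.

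Promoters are shown for 4 genes on which the isoform comparison turns, because they differ in the letters known for regulators of respiratory genes. RefSeq windows (GRCm38.p6, 250 bases before to 50 after the start of transcription) were found for 77 of the 93 genes. Cox6a2, whose values are given below, had no entry in that table. The windows of Cox7a1 (chr7:30183921-30184220, plus strand) and Cox8b (chr7:140900397-140900696, minus strand) belong to the muscle isoforms, and those of Cox6a1 (chr5:115348909-115349208, minus strand) and Cox8a (chr19:7217567-7217866, minus strand) to ubiquitous partners. Capitals mark matches on either strand to the motifs of NRF1 (GCGC, any base, then TGCGC), ETS factors such as GABPA (CCGGAAG), YY1 (AAGATGGC), ERR (AAGGTCA) and MEF2 (CTA and TAG with any 4 bases between), to an E-box (CAGCTG) and to a TATA box (TATAAA).
Cox7a1: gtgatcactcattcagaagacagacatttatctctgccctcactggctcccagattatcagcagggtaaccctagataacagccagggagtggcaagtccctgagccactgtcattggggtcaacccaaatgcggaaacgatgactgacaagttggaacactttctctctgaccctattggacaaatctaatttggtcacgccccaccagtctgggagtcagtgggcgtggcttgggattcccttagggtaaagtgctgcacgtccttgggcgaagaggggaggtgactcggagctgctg
Cox8b: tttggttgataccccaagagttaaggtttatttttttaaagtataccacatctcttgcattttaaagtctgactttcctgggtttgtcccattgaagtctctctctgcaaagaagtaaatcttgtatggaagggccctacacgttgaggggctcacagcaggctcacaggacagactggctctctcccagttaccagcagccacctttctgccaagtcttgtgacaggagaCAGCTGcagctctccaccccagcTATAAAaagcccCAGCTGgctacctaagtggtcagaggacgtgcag
Cox6a1: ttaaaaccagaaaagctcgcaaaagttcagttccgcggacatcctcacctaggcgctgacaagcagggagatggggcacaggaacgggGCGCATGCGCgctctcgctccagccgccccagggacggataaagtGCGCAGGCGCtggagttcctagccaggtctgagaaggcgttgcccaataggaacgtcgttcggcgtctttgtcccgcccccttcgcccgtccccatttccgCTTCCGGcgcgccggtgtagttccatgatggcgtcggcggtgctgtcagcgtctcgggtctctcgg
Cox8a: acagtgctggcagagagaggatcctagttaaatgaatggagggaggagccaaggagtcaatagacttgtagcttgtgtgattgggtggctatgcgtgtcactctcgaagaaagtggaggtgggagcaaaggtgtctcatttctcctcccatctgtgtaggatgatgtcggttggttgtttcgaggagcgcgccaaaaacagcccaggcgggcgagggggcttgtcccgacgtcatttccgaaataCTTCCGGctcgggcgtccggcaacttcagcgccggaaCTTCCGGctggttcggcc

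NRF1 and ETS letters stood in the windows of Cox6a1 and ETS letters in that of Cox8a, while the window of Cox8b held a TATA box and 2 E-boxes, and that of Cox7a1 held none of these letters. The window of the partner Cox7a2 held none of them either, so the contrast is not one between all muscle isoforms and all partners. Over the 78 windows of members other than tissue isoforms, 24.4% held the NRF1 letters against 4.6% of all 32851 windows of the same length, 24.4% the ETS letters against 8.86%, 14.1% the YY1 letters against 2.75%, and 11.5% the ERR letters against 4.72%. None of the 4 windows of tissue isoforms held any of these 4 motifs. TATA letters were found in 2 of those 4 windows, against 13.6% of all windows. MEF2 letters were in 2.56% of the 78 windows and 3.69% of all, and E-box letters in 7.69% and 16.3%. A match describes the letters only and says nothing of whether a factor binds.

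In the marrow-like pair nearly the whole chain read lower on the KA/KA array. Of 89 members, 85 (95.5%) were lower on KA/KA 1 than on WT 1, against 43.2% of all 11392 genes tested, and 52 (58.4%) were lower by at least 0.5 log2 units, against 12.7% of all genes. None was higher by that much, against 18.6% of all genes, and 4 (4.49%) were lower by at least 1 log2 unit, against 1.58% (Atp5e, Atp5md, Ndufb9 and Ndufaf6). The median member differed by -0.59 log2 units and the median gene by 0.08. These are 2 arrays, so the difference has no replicate check. By class, the medians were -0.62 for complex I subunits (30 of 33 lower), -0.68 for complex III subunits (8 of 8), -0.66 for ubiquitous subunits of complex IV (11 of 11) and -0.62 for complex V (17 of 17), but -0.23 for complex II (4 of 4) and -0.37 for the assembly factors of complex I (8 of 8). The members' median kept its sign under every scaling tried, at -0.57 with each array centred on its median and -0.36 after quantile normalisation, where 78 of 89 were lower, against 45.7% of all genes.

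**Figure D1:**
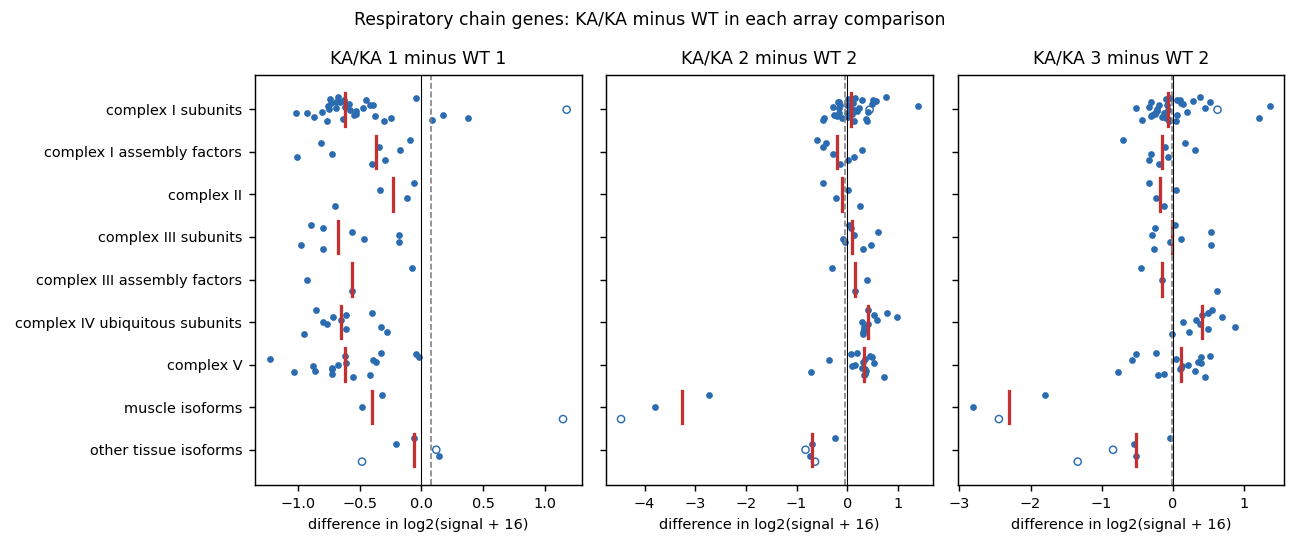
Difference in log2(signal + 16) between a KA/KA and a WT array (x axis, scaled separately in each panel) for every member by class. Each filled point is a gene that passed the filter on dim signals, each open point one that did not, red bars are class medians over filled points, and the dashed line is the median of all genes tested. In the left panel most points lie left of 0, with class medians from -0.68 to -0.06. In the other panels the muscle isoforms lie far to the left. The ubiquitous complex IV subunits have medians of 0.40 and 0.41, which shrink to 0.068 for both arrays together after quantile normalisation.

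Atp5e, the epsilon subunit of the catalytic head of ATP synthase, showed the largest difference of the pair, with 12.46 on KA/KA 1 and 13.69 on WT 1. Atp5md, a small subunit known for a part in holding ATP synthase dimers together, read 10.69 and 11.72. Ndufb9, an accessory subunit in the membrane arm of complex I, read 12.18 and 13.20, and its second bright probe set was 0.84 lower on the KA/KA array. In each of these genes the WT array was the higher one by more than 1 log2 unit.

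Uqcrh, the hinge protein of complex III, read 13.98 on WT 1, and both of its probe sets differed by -0.97. Uqcr10, a small subunit of the same complex, read 11.31 and 12.21, and Ndufb8, of the membrane arm of complex I, 12.09 and 13.02. Ndufa4, named for complex I but known as a subunit of complex IV, read 12.70 and 13.66, and Cox4i1, the ubiquitous form of the largest nuclear subunit of complex IV, 13.43 and 14.28. All of these were lower on the KA/KA array. Only 4 members were not lower there, 3 of them in complex I. Ndufv1, which holds the flavin, read 11.57 and 11.48, and Ndufs1, the largest iron-sulphur subunit, 11.01 and 10.84. Ndufs5 was higher as well (9.20 and 8.83), but its probe set and that of Ndufb4 are not the only ones for these genes: others carry the symbols of several copies and were left out by the rule.

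Complex II, which also belongs to the citric acid cycle, differed least. Sdha, its flavoprotein, read 11.86 on KA/KA 1 and 11.92 on WT 1, a difference of -0.06 that turned to 0.011 after quantile normalisation. Sdhb, the iron-sulphur subunit, read 12.22 and 12.55, and Sdhc, a membrane anchor, 11.16 and 11.28. Sdhd, the other anchor, stood apart from the rest of the complex with 11.37 and 12.07. For complex I, the assembly factors Ndufaf6 (-1.01) and Ndufaf2 (-0.81) had the largest differences of their class, and Ndufaf1 (-0.09) the smallest. These differences are all between the same pair of arrays.

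Probe sets of one gene mostly pointed the same way. Of 159 member probe sets above the filter, 149 were lower on KA/KA 1, and only 3 of the 48 members with several such probe sets (Atp5a1, Atp5d and Ndufs4) had probe sets of both signs. Signal level moved with the difference in both sets of arrays. Among all other genes tested, the median difference of the marrow-like pair was 0.14 at a mean level of 10 to 11, -0.01 at 11 to 12, -0.12 at 12 to 13 and -0.44 above 13. The members in the same bands stood at -0.34, -0.42, -0.63 and -0.68, below the other genes in each, with 7, 19, 32 and 17 members. The highest signal was 26811 on KA/KA 1 and 40635 on WT 1. Of 42 genes for cytosolic ribosomal proteins, another set of abundant short transcripts, 40 were lower on KA/KA 1, with a median of -0.67. The part of signal level in the members' difference was not tested beyond these values and the quantile-normalised median above.

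**Figure D2:**
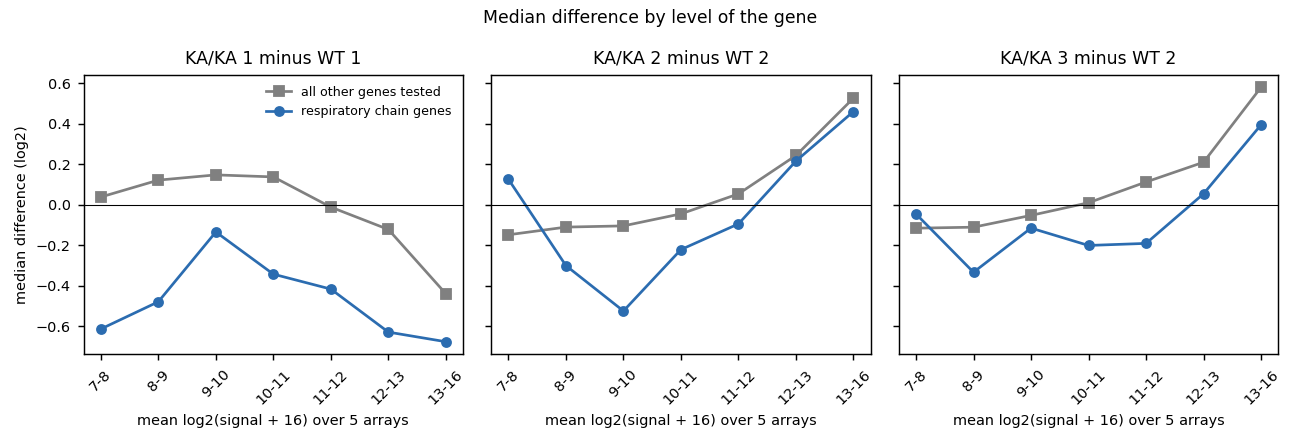
Median difference in log2(signal + 16) (y axis) by mean level of the gene over the 5 arrays (x axis, bands of log2 units), for respiratory chain genes (blue circles) and all other genes tested (grey squares). On KA/KA 1 minus WT 1 the members lie below the other genes in each band. In both lung-like comparisons the medians of the band above 13 are the highest of each line, at 0.46 and 0.40 for members above 13 and 0.53 and 0.58 for other genes.

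The neighbouring mitochondrial lists did not all go with the chain in that pair. Of 19 genes of the mitochondrial ribosome and its translation factors, 16 were lower on KA/KA 1 (median -0.40), among them Mrpl13 (-0.84) and Mrps16 (-1.04), against the 43.2% of all genes. Of 8 electron carriers and translocases 7 were lower (median -0.35), with the electron carrier Cycs at 13.31 and 13.66. The 15 citric acid cycle genes (8 lower, median -0.04) and 14 genes of fatty acid oxidation (10 lower, -0.07) stood close to the median gene, as did 13 assembly and copper factors of complex IV (7 lower, -0.07) and 12 regulators of mitochondrial biogenesis (6 lower, 0.02). Of 10 glycolytic genes 4 were lower (median 0.16), near the 43.2% and the median of 0.08 of all genes. Their summed signals were 31730 on KA/KA 1 and 33710 on WT 1. Markers of other cells differed in the pair as well, in both directions. Of 8 neutrophil genes 8 were lower (median -0.59), of 4 erythroid genes 4 (-0.52) and of 6 T cell genes 5 (-0.37). The 9 pro-B and pre-B genes (5 lower, -0.02) and 9 proliferation genes (5 lower, -0.05) had medians near 0 but differed in both directions. The former ran from -0.65 (Vpreb1) to 0.57 (Ebf1), with summed signals of 54610 on KA/KA 1 and 63530 on WT 1. The latter ran from -0.36 (Birc5) to 0.58 (Plk1). The summed signals on KA/KA 1 and WT 1 were 128200 and 194000 for neutrophil, 4599 and 7379 for erythroid and 1757 and 3693 for T cell genes. Of 8 macrophage genes only 1 was lower (median 0.36, summed signals 52140 and 50780), and of 6 endothelial genes 0 were (median 0.62, sums 3143 and 1928). The part of these cells in the members' difference was not tested, and fewer cells of a type and less RNA per cell cannot be told apart in such samples.

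On the lung-like arrays the muscle isoforms of complex IV read far below WT 2 on both KA/KA arrays, while the ubiquitous chain lay near 0, with a lean that depended on the scaling. Relative to WT 2, the median member stood at 0.14 on KA/KA 2 and -0.04 on KA/KA 3, with the median gene at -0.04 and -0.01. Both KA/KA arrays were higher for 38 of 89 members (42.7%, against 33.4% of all genes) and lower for 26 (29.2%, against 37.4%). By at least 0.5 log2 units, 3 were higher on both (3.37%, against 9.75%) and 6 lower on both (6.74%, against 8.87%). The ubiquitous subunits of complex IV were higher on both in 10 of 11 genes (medians 0.40 and 0.41), and complex V in 11 of 17 (0.34 and 0.12). Complex I subunits (0.08 and -0.07), complex III subunits (0.10 and -0.01) and complex II (-0.11 and -0.19) lay close to 0. After quantile normalisation 21 of 89 members were higher on both KA/KA arrays (against 34.7% of all genes) and 45 lower (against 35.7%). Their medians were then -0.05 and -0.11. Of 11 ubiquitous complex IV genes 6 were then higher on both and 3 lower. In complex V 5 of 17 were higher and 7 lower, close to the shares of all genes. Other genes above a mean level of 13 had medians of 0.53 and 0.58, the members in that band 0.46 and 0.40. The highest signal was 21977 on WT 2, against 38918 and 40821 on KA/KA 2 and KA/KA 3, and its part in this lean was not tested.

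Cox6a1, the ubiquitous form of a small subunit of complex IV, had the largest difference among ubiquitous members of its complex, with 14.35 on KA/KA 2 and 14.06 on KA/KA 3 against 13.37 on WT 2. Cox5a, a matrix-side subunit, followed with 13.69 and 13.40 against 12.90, and Cox7a2l, a factor of respiratory supercomplexes, with 12.05 and 12.58 against 11.72. Both KA/KA arrays lay above WT 2 in each of these probe sets, also after quantile normalisation, but another bright probe set of Cox7a2l differed by -0.01 and 0.45. In complex V, Atp5pb of the peripheral stalk read 13.75 and 13.48 against 13.02, and Atp5c1, the central shaft, 13.28 and 13.35 against 12.83, both still above WT 2 after quantile normalisation. A dimmer probe set of Atp5c1 differed by -0.51 and 0.07. Atp5g3, of the rotor ring, read 13.91 and 13.77 against 13.37, but differed by 0.031 and -0.077 once quantile-normalised. In complex I, the small subunits Ndufa1 (13.78 and 13.41 against 13.02) and Ndufa3 (13.25 and 12.96 against 12.68) were higher on both KA/KA arrays under each scaling. Uqcrb of complex III read 14.34 and 14.28 against 13.74, and turned to -0.071 and -0.20 after quantile normalisation. Its second bright probe set was lower on both KA/KA arrays without rescaling (-0.32 and -0.41), so its direction is uncertain. Uqcrfs1, the Rieske iron-sulphur protein (11.69 and 11.69 against 11.73), and Atp5j of the peripheral stalk (12.79 and 12.81 against 12.68) differed by less than 0.13 log2 units.

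Some ubiquitous members ran the other way. Atp5md read 10.67 and 10.61 on KA/KA 2 and KA/KA 3 against 11.38 on WT 2, and Atp5g1, a gene for the rotor ring of ATP synthase, 11.47 and 11.26 against 11.83. Sdha read 11.64 and 11.78 against 12.12. Each of these was lower on both KA/KA arrays under each scaling, as were Ndufb2 (11.31 and 10.95 against 11.46) and Ndufb10 (11.45 and 11.39 against 11.73) of the complex I membrane arm. Ndufv1 differed from WT 2 by -0.48 and -0.43, but its other probe sets were higher on both KA/KA arrays, so its direction is uncertain. Ndufb1, an accessory subunit of complex I, had the largest positive difference of any member that passed the filter, with 8.52 and 8.48 against 7.12, where WT 2 lay close to the level of the filter, 7.04.

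The 3 muscle isoforms of complex IV were far lower on both KA/KA arrays of the lung-like set. Cox6a2 read 8.78 on KA/KA 2, 9.70 on KA/KA 3 and 11.50 on WT 2, and 9.98 on KA/KA 1 and 10.29 on WT 1. Its second probe set read 6.30, 7.49 and 9.04 on the lung-like arrays, in the same order. Cox7a1 read 6.83, 7.80 and 10.61 there, against 7.24 and 7.72 in the marrow-like pair. Cox8b read 6.16, 8.18 and 10.63, against 5.47 and 4.32, and missed the filter through its low values on the other arrays. In all of them WT 2 was the highest array and KA/KA 2 the lowest of the lung-like set, while the differences inside the marrow-like pair were -0.32, -0.48 and 1.15, the last between values near background. Of the 89 members that passed the filter, 2 (2.25%) were lower by 1 log2 unit or more on both lung-like KA/KA arrays, Cox6a2 and Cox7a1, against 1.76% of all genes.

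The partners did not share this pattern. Cox6a1 read 14.35 and 14.06 on the lung-like KA/KA arrays against 13.37 on WT 2, Cox7a2 13.79 and 13.74 against 13.37, and Cox8a 12.85 and 12.78 against 12.55. All 3 partners were thus higher on both, but after quantile normalisation Cox7a2 differed by -0.11 and -0.094. The difference of the muscle form from WT 2 minus that of its partner was -3.70 on KA/KA 2 and -2.49 on KA/KA 3 for Cox6a2, -4.21 and -3.19 for Cox7a1, and -4.77 and -2.67 for Cox8b. In the marrow-like pair the same quantity was 0.40, 0.29 and 1.43. After quantile normalisation the mean difference of both KA/KA arrays from WT 2 was -2.33 for Cox6a2 and -3.40 for Cox7a1.

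**Figure D3:**
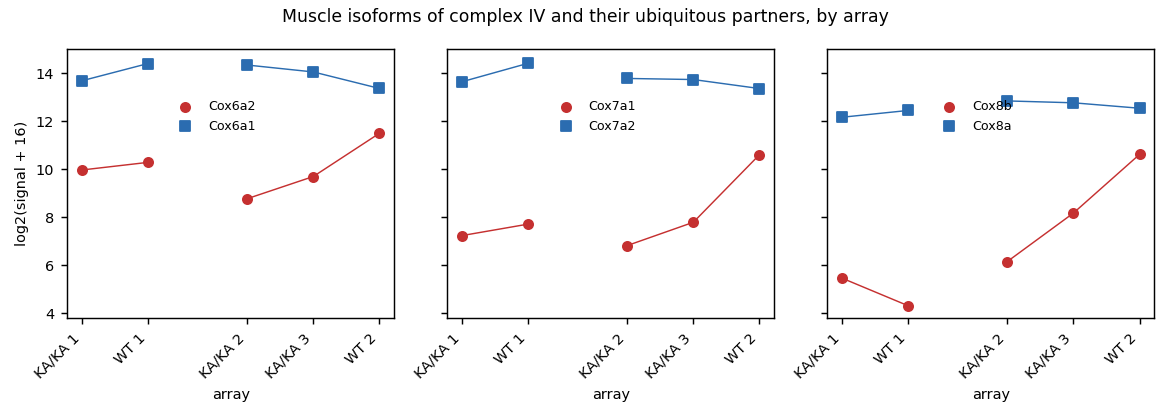
Signal as log2(signal + 16) (y axis) on each array (x axis) for the muscle isoforms of complex IV (red circles) and their ubiquitous partners (blue squares). Lines join arrays of one set. On the lung-like arrays the muscle isoforms run from 8.78, 6.83 and 6.16 on KA/KA 2 up to 11.50, 10.61 and 10.63 on WT 2, while their partners differ far less between arrays.

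Heart muscle genes followed the same order of arrays. Of 16 genes on the list, 15 were highest on WT 2 and lowest on KA/KA 2, an order shared by 23.1% of all genes tested. That share is over genes that passed the filter, while the counts of this order also include dimmer genes. The filter was passed by 10 of these 16, 2 of 10 skeletal muscle, 3 of 6 brown fat and 3 of 6 ciliated airway genes. The summed signal of the 16 was 1826 on KA/KA 2, 12940 on KA/KA 3 and 71380 on WT 2. Myl7, a myosin light chain of the atrium, read 6.01, 10.20 and 13.12, and Sln, an atrial regulator of the calcium pump, 4.76, 10.12 and 12.18. Mb, the oxygen-binding protein of heart and oxidative muscle, read 6.20, 8.22 and 11.67. Myl2, the ventricular light chain, read only 4.69, 6.07 and 6.58. Of the 10 skeletal muscle genes 4 had this order, with a summed signal of 508.2 to 943.5, and Myh4, a fast skeletal myosin, read 4.75 to 5.04, near background. Ucp1, the uncoupling protein of brown fat, read 4.23 to 4.72, also near background, while 2 of the 6 measured genes of the brown fat list had the order of the muscle isoforms. These were Fabp3, a fatty acid carrier shared by heart and brown fat (7.28, 9.47 and 11.56), and Adipoq, the fat cell hormone adiponectin (5.68, 7.29 and 9.96). Adipoq was higher still in the marrow-like pair, at 10.29 and 10.67. The summed signal of the brown fat list was 789.2, 1028 and 4277. Lists of other tissues were also lower on KA/KA arrays. Of 6 ciliated airway genes 5 had the same order (sums 919, 1814 and 3050), and of 6 endothelial genes 3 did (10020, 32800 and 38580). Of 6 smooth muscle genes 5 were lower on both KA/KA arrays (20090, 16220 and 24580). Keratinocyte genes summed to 34620 on KA/KA 2 against 151.4 and 185.2. The part of any of these tissues, heart included, in the signal of the muscle isoforms was not tested.

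**Figure D4:**
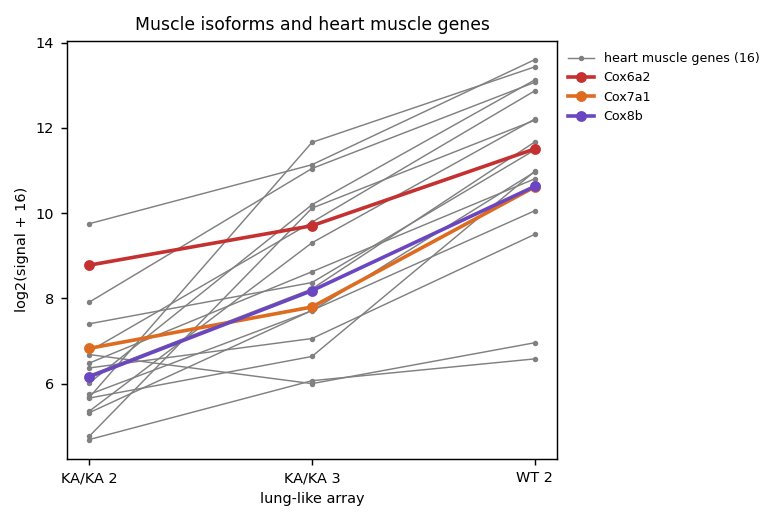
Signal as log2(signal + 16) (y axis) on the lung-like arrays (x axis) for 16 heart muscle genes (grey) and the 3 muscle isoforms of complex IV (colours). Heart genes and isoforms are highest on WT 2, and in 15 of the 16 grey lines KA/KA 3 lies between KA/KA 2 and WT 2.

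Among other mitochondrial genes, a muscle and a ubiquitous form also differed on these arrays. Slc25a4, the adenine nucleotide translocase of heart and muscle, read 12.53 and 12.75 on KA/KA 2 and KA/KA 3 against 13.09 on WT 2, while Slc25a5, its form in proliferating cells, read 13.57 and 13.47 against 12.89. The differences of Slc25a5, 0.68 and 0.58, lie near the medians of other genes above a mean level of 13, 0.53 and 0.58. Rescaled values are not given for these 2 genes. Of 14 genes of fatty acid oxidation, a main fuel pathway of the heart, 11 were lower on both KA/KA arrays (medians -0.28 and -0.26, against 37.4% of all genes), among them Acadm (-0.41 and -0.25) and Acadl (-0.41 and -0.29). Of 15 citric acid cycle genes 9 were lower on both (-0.26 and -0.10). Other lists leaned upward. Of 8 electron carriers and translocases 5 were higher on both and 1 lower (medians 0.38 and 0.16). Of 10 glycolytic genes 5 were higher on both and 2 lower (1.20 and 0.05). Their summed signals were 69670 on KA/KA 2, 34410 on KA/KA 3 and 28860 on WT 2. The 19 genes of the mitochondrial ribosome and translation (7 higher and 4 lower on both, medians 0.11 and -0.01) and the 13 assembly and copper factors of complex IV (2 higher and 5 lower) had no common direction. Lists of other cells differed at the same time: 9 of 9 proliferation genes (medians 1.61 and 1.17), 8 of 8 macrophage genes (1.73 and 1.33) and 6 of 6 T cell genes (1.07 and 2.23) were higher on both KA/KA arrays. On KA/KA 2, KA/KA 3 and WT 2 their summed signals were 3218, 3046 and 1105 (proliferation), 89230, 68130 and 29330 (macrophage) and 3735, 9482 and 1621 (T cell). Of 8 neutrophil genes 5 were higher on both and 1 lower (medians 0.61 and 3.44, sums 57700, 88270 and 7591). Of 8 lung epithelium genes that passed the filter 6 were higher on both and 2 lower (0.55 and 0.59). The sums of all 9 measured were 166900, 166500 and 104700. The part of any of these cells in the differences of the ubiquitous members was not tested.

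Among the other tissue isoforms, Cox4i2 read 7.37 and 7.57 on the lung-like KA/KA arrays and 7.62 on WT 2, against 6.89 and 6.95 in the marrow-like pair. The difference of 0.63 log2 units is between dim signals, those of the pair below the filter level of 7.04. It was not rescaled, and the median log2 signal of an array was 6.80 and 6.82 in the pair and 7.13 to 7.17 on the lung-like arrays. Ndufa4l2, which missed the filter, read 8.04, 7.34 and 8.68 there and 4.70 and 5.18 in the pair. Pericyte genes, of a cell type that lies along capillaries, were 3.04 higher on the lung-like arrays in the median of 8 genes. Their summed signals were 12180 to 25920 there, against 1507 and 1910 in the pair. Of a list for the response to low oxygen, which holds Cox4i2 too, 8 genes passed the filter. Their median was 0.87 higher on the lung-like arrays. Against WT 2, 4 of them were higher on both KA/KA arrays and 3 lower (medians 0.87 and 0.29). The part of pericytes or of low oxygen in the Ndufa4l2 signal was not tested. The testis forms Cox6b2 and Cox8c were lower on both lung-like KA/KA arrays (Cox6b2 by -0.70 and -0.54, Cox8c by -0.73 and -0.51), also under the other scalings. Cox7b2, the remaining testis form, did not pass the filter, nor did Ndufb4, and both read at most 5.89 on every array.

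Cox6a2 was well above background in the marrow-like pair too, where Myh6, the atrial and adult mouse heart myosin, was not (4.95 and 5.35). The summed heart signal of 5849 and 7286 in the pair came mostly from Myl4 (12.36 and 12.71), a light chain also made by erythroid cells. Some genes of plasmacytoid dendritic cells, which carry B220 and lie in the same sort, were higher there than on the lung-like arrays. Siglech, their lectin receptor, read 10.30 and 11.12, and Bst2 10.90 and 11.76, against at most 6.87 for Siglech and 6.71 for Bst2 on the lung-like arrays. Tcf4 of the same list differed little, with 12.34 and 11.88 in the pair and 11.79 to 12.05 on the lung-like arrays. Over 8 genes of this list, chosen after the values were seen, 4 were lower on KA/KA 1 (median -0.29), Siglech and Bst2 among them. Irf8, Pacsin1, Spib and Tcf4 were higher. The summed signals of 29790 and 32970 came mostly from Spib, Irf8 and Tcf4. The part of these cells in the Cox6a2 signal was not tested.

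Between the 2 sets of arrays the chain differed little. The mean of the lung-like arrays, weighting both genotypes equally, was within 1 log2 unit of that of the marrow-like pair for 85 of 89 members (95.5%), against 61.3% of all genes. The exceptions were Cox7a1 (1.48 higher) and 3 genes that were lower: Ndufb1 (-1.84), Uqcrc2, a core protein of complex III (-1.29), and the complex I assembly factor Ndufaf2 (-1.23). The median member was 0.27 lower on the lung-like arrays, and the median gene 0.05 higher. These values were not rescaled between the sets. The median log2 signal of an array was 6.80 and 6.82 in the pair and 7.13 to 7.17 on the lung-like arrays. Assembly factors of complex I (-0.45) had the lowest class median and the 2 tested muscle isoforms (0.86) the highest. Regulators of mitochondrial biogenesis were 0.61 lower in the median of 12 genes, with Tfam, which packages mitochondrial DNA and starts its transcription, at 11.35 and 11.81 in the pair and 9.69 to 10.33 on the lung-like arrays, and Ppargc1a, a coactivator of respiratory genes, at 6.97 and 7.20 against 7.95 to 8.19.

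No member passed a test of genotype. With limma over all 5 arrays, 0 of 11392 genes passed at an adjusted p of 0.05 (0% of all), and the smallest adjusted p was 0.9999. At an unadjusted p under 0.05, 25 genes passed: 0 members were higher (0.193% of all genes) and 1 was lower (0.0263% of all genes), Atp5md. That adjusted p from limma held for Cox6a2 (-1.41 ± 0.58, KA/KA minus WT ± SE, n = 3 and 2), Cox7a1 (-1.88 ± 0.96) and Atp5md (-0.89 ± 0.27). Each genotype holds arrays of both sets, so the spread in this fit includes the difference between sets. Arrays correlated at 0.45 to 0.58 between sets and at 0.84 to 0.97 within them. The lack of calls therefore says little about genotype. With the set of arrays as a block limma again called 0 genes and 0 members (311 genes at an unadjusted p under 0.05). The block takes the genotype effect as equal in both sets. Unadjusted, 0 members were higher (1.79% of all genes) and 3 were lower (0.939% of all genes): Atp5md, Cox7a1 and Cox6a2. This limma fit gave -1.43 ± 0.52 for Cox6a2, -2.09 ± 0.70 for Cox7a1 and -0.86 ± 0.23 for Atp5md, each at an adjusted p of 0.9989. Without WT 2 the lung-like set has no WT array, and the fit only returns the difference of the marrow-like pair. That was -0.32 for Cox6a2, -0.48 for Cox7a1 and -1.03 for Atp5md. The larger values of Cox6a2 and Cox7a1 thus rest on WT 2, and the value of Atp5md without WT 2 is no separate check.

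The difference of the genotype effect between the 2 sets was tested by an interaction term in limma, and 0 genes passed (658 at an unadjusted p under 0.05, smallest adjusted p 0.7539). The effect of the lung-like arrays exceeded that of the marrow-like pair, at an unadjusted p under 0.05, for 15 of 89 members (16.9%) against 3.59% of all genes, and was below it for 1 (1.12%, Cox7a1) against 2.19%. These shares are not matched for signal level. Other genes with a mean level above 13 had medians of -0.44 in the pair and of 0.53 and 0.58 on the lung-like arrays. Ndufb1 (2.14 ± 0.51) and Cox7a1 (-2.82 ± 0.87) both stood at an adjusted p of 0.7539 in this limma fit. The fit has 1 residual degree of freedom, so a difference between the sets is not shown for any single member. The opposite signs of the class medians in the 2 sets are descriptions of these arrays.

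All 3 KA/KA arrays lay below both WT arrays for 15 of 89 members (16.9%), against 2.66% of all genes tested, and above both for 0 members, against 4.12%. The 15 were Atp5md, Atp5g1, Cox6a2, Cox6b2, Sdha, Uqcc1, Ndufaf1, Ndufaf3, Ndufaf5, Ndufa5, Ndufab1, Ndufb2, Ndufb9, Ndufb10 and Ndufs3. Other probe sets of Ndufab1 and Uqcc1 were higher on KA/KA 2 than on WT 2. The count was 6 with arrays centred on their medians and 24 after quantile normalisation, where 2.25% and 3.01% of all genes did so. Atp5md had the smallest p of any member in the fits with and without the block, with KA/KA arrays at 10.61 to 10.69 and WT arrays at 11.38 and 11.72. It is measured by 1 probe set, and it did not pass limma's test.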

How the data were processed

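RNA of 5 mouse samples (150 ng each) was hybridised to Affymetrix arrays. The authors deposited 1 signal intensity per probe set and array (45101 probe sets), made with MAS5 per the submitters' processing notes. The series text speaks of log2 values made in Partek, but the deposited intensities are linear, with a trimmed mean of 500 on each array (2% left out at each end). From these, log2(signal + 16) was computed here. The 34945 probe sets with 1 symbol were used, 932 had several and 9160 none, and 64 controls were left out. Sets of arrays were split at a median log2 signal of 10 over 24 poly-A control probe sets. Genotype was tested with limma 3.58.1 in R 4.3.3 (eBayes with trend, two-sided, Benjamini-Hochberg over 11392 genes, threshold 0.05), alone, with the set as a block, and with an interaction. The fits were tested on simulated data. The rule for named genes took tissue isoforms and partners, the 4 Sdh genes, for complexes I, III, IV and V the 3 highest and 3 lowest members whose lung-like KA/KA arrays lie on one side of WT 2 and the 2 largest differences of the marrow-like pair, the 3 highest and 3 lowest between sets, and up to 3 of the brightest genes of each other list; any other gene was named after its values were seen. The members and lists were chosen with earlier results of these data known. The number of arrays limits the precision, and p-values measure only the spread between these arrays. Alternatives covered scaling, pseudocount, filter, probe set choice, the eBayes trend, leaving out arrays, and a block for the replicate number.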

Additional observations from a re-analysis of the deposited data

Results flagged for a closer look

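The class medians of 2 groups of members pointed one way in the marrow-like pair and the other way on both lung-like KA/KA arrays. For ubiquitous subunits of complex IV they were -0.66 (KA/KA 1 minus WT 1), 0.40 (KA/KA 2 minus WT 2) and 0.41 (KA/KA 3 minus WT 2). For complex V they were -0.62, 0.34 and 0.12. Bright genes outside the chain had the same signs: other genes with a mean level above 13 had medians of -0.44, 0.53 and 0.58. The 42 genes for cytosolic ribosomal proteins stood at -0.67, 0.56 and 0.81. The opposite signs are thus not particular to these classes, and the part of signal level was not tested. The difference between the sets was not tested for these medians, and both lung-like values share the array WT 2. After quantile normalisation the mean lung-like value was 0.068 for complex IV and -0.058 for complex V.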

How the results depend on the processing

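After quantile normalisation the class medians of the marrow-like pair became -0.38 (complex I), -0.16 (II), -0.41 (III), -0.24 (ubiquitous IV) and -0.31 (V), all still below 0. In the lung-like arrays (mean of both KA/KA arrays minus WT 2) they became -0.076 (I), -0.10 (III), 0.068 (IV) and -0.058 (V). For ubiquitous complex IV small moves exceeded the close agreement of the 2 KA/KA arrays: -0.64 and 0.48 with median centring, -0.69 and 0.46 with the upper-quarter filter, -0.63 and 0.38 with the mean of probe sets, and -0.69 and 0.43 without probe sets shared between transcripts (pair first, lung-like second). Without shared probe sets complex III stood at -0.56 in the pair, and with the mean of probe sets complex II at -0.25 on the lung-like arrays.

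Leaving out KA/KA 2 or KA/KA 3 gave lung-like medians of -0.070 to 0.080 (I), -0.19 to -0.11 (II), -0.010 to 0.10 (III), 0.40 to 0.41 (IV), 0.12 to 0.34 (V) and -3.25 to -2.31 (muscle isoforms). With the array set as a block, leaving out 1 array gave 0 to 6 called genes (6 without KA/KA 2, 1 without KA/KA 3), none of them a member. Without the block leaving out any array gave 0. Where an arm is left with 1 array, it is assumed to vary like the others. With the replicate number as a block limma called 1 gene, no member. Same-numbered arrays correlated at 0.877 and 0.653 in their deviations from the group means. Both arrays numbered 1 are marrow-like and both numbered 2 lung-like, so these values carry the difference between sets and cannot show pairing. The labels give no shared origin, so same-numbered arrays were not treated as pairs. Of the recomputed values, 315 kept direction and side of the threshold or moved less than the spread, and 27 moved more. Array number and the single WT array in each set limit every value.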
